A study of Mus musculus with 2 samples.

Results

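The cells described here are mid round spermatids, the haploid male germ cells that follow meiosis and have not yet begun to elongate. They were chosen by a rule on measured RNA: the share of a cell's UMIs (unique molecular identifiers, which stand for RNA molecules) that came from 6 genes, Fam24a, Tex36, Smco4, Lurap1, 1700041C23Rik and Armh2. The 400 cells with the highest share in each of 2 libraries were taken, so the members are 800 of 38095 cell barcodes, 400 of 15210 in the Prm2 +/- library and 400 of 22885 in the Prm2 -/- library. Cells could enter with at least 2000 UMIs and at most 20% of UMIs from the mitochondrial genome. Cells with at least 5000 UMIs and 1.5% or more of them from Prm1, Tnp1 and Tnp2, genes of later spermatids, were left out. So were cells with more UMIs from Pxt1, Hdgfl1 and 1700001F09Rik, genes of the first cells after meiosis, than from Fam24a, Tex36, Smco4 and Lurap1. All values of these genes within a library are a product of the rule and are given as a description.

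After meiosis a round spermatid builds the acrosome, a vesicle over the nucleus that carries the enzymes and membrane proteins used at the egg. It transcribes much of what the sperm will need, and many of these mRNAs are stored for days before they are translated. Transcription ends when histones are replaced by transition proteins and then by the protamines Prm1 and Prm2. Prm2 encodes protamine 2, a small basic protein of sperm chromatin, and the study is about sperm without it in fertilization and the early embryo. Both libraries came from dissociated whole mouse testis, 1 from Prm2 +/- (heterozygous) and 1 from Prm2 -/- (knockout) mice, and the age, the strain, the number of mice per library and the altered part of the gene are not given in the sources used here. The protocol in the labels washed the tubules to reduce Leydig cells. With 1 library per genotype there is no replicate check. Every interval below is at 95% and covers counting error only, and a 2-fold call marks size and tests nothing.

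The 2 libraries reached their 400th cell at different scores. The score, in percent of a cell's UMIs, ran from 0.611 down to 0.271 in the Prm2 +/- members and from 0.684 down to 0.451 in the Prm2 -/- members. The last cell taken and the first left out stood at 0.2714 and 0.2713 in the Prm2 +/- library, and at 0.4514 and 0.4513 in the Prm2 -/- library, so the rule cuts a continuous range and does not bound a type. Only 5 Prm2 +/- members reached the lowest score of the Prm2 -/- members, while 2616 Prm2 -/- cells reached the lowest score of the Prm2 +/- members. The members were 10.1% of the 3971 eligible Prm2 +/- cells and 4.28% of the 9355 eligible Prm2 -/- cells. Median depth was 9280 UMIs and 3473 genes in the Prm2 +/- members, and 6532 UMIs and 2906 genes in the Prm2 -/- members. The Scrublet doublet caller had marked 3 and 16 of them, and no member's barcode was shared between the libraries, which share 88 barcodes in all. The clause on Prm1, Tnp1 and Tnp2 works only at 5000 UMIs or more, and 57 Prm2 +/- members but 1 Prm2 -/- member passed it at 1.5% or more by being shallower.

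Each member set was set beside 2 sets of 400 cells of its own library. Early neighbours have the highest share of Pxt1, Hdgfl1 and 1700001F09Rik among cells not left out for Prm1, Tnp1 and Tnp2, and 10 Prm2 +/- and 2 Prm2 -/- cells are in both sets. Late neighbours have the lowest share of Prm1, Tnp1 and Tnp2 among the cells left out for them. The median score was 0.307% in the Prm2 +/- members, 0.0785% in their early and 0.101% in their late neighbours. In the Prm2 -/- library these medians were 0.488%, 0.142% and 0.207%. The members thus lie between 2 sets that both have less of the score genes, which is how the sets were drawn.

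**Figure D1:**
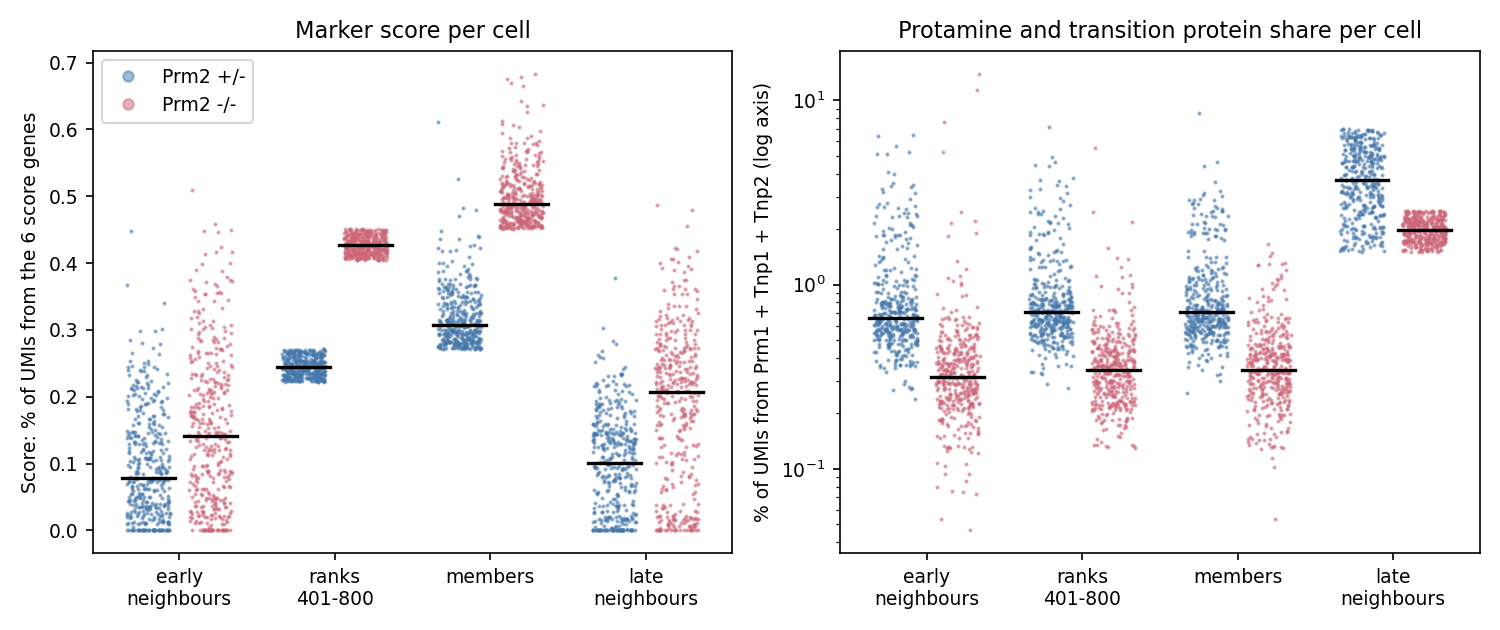
Each point is 1 cell, in the Prm2 +/- (blue) or the Prm2 -/- library (red), and black bars are medians. Left, the score in percent of UMIs: the members lie above 0.2714% and 0.4514%, with the 400 next-ranked cells just below. Right, the percent of UMIs from Prm1, Tnp1 and Tnp2 on a log axis (cells at 0 are not drawn): the members (medians 0.707% and 0.344%) lie near the early neighbours (0.663% and 0.317%) and below the late ones (3.70% and 1.98%).

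The label was checked against markers of round spermatids that the rule did not use, and they were high. Acrv1, Spaca1, Spaca3, Spaca7, Lyzl4, Catsper3, Catsper4, Sun5, Dpy19l2 and Izumo1 are acrosome, sperm head and channel genes of round spermatids, and all 400 members of each library held UMIs of them. Their summed level was 4215 CPM (UMIs scaled to 1000000 UMIs of the set) in the Prm2 +/- members, against 1635 CPM in the early and 2544 CPM in the late neighbours. In the Prm2 -/- library it was 4316, 1589 and 2678 CPM. The 400 next-ranked cells came close to the members, with 3930 CPM in the Prm2 +/- and 4170 CPM in the Prm2 -/- library. Of the 10, 9 stood 2-fold above the early neighbours and 1 2-fold below, against 19.6% and 9.57% of all genes. The 1 below was Dpy19l2, which anchors the acrosome to the nucleus (152 and 69.6 CPM, and 161 and 75.9 CPM). Markers of dividing spermatocytes, among them the mitotic kinases Aurka and Plk1 and the cyclin Ccna1, summed to 426 CPM in both member sets, against 1136 and 1236 CPM in the early neighbours. Aurka itself stood at 58.6 and 60.2 CPM in the members, and at 309 and 387 CPM in the early neighbours.

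Markers of other germ cell stages were present. The 11 markers of elongating spermatids, which include Prm1, Prm2, Prm3, Tnp1 and Tnp2, summed to 14592 and 8001 CPM in the members, against 11338 and 5630 CPM in the early and 60988 and 26316 CPM in the late neighbours. Of 10 of them compared, 5 stood 2-fold above the early and 4 2-fold below the late neighbours, against 19.6% and 8.83% of all genes. The 4 include Prm1, Tnp1 and Tnp2, by whose share the late neighbours were drawn, so that count is mostly a product of the rule. The 8 pachytene spermatocyte markers summed to 2189 and 2335 CPM, against 3210 and 3528 CPM in the early neighbours.

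Markers of somatic cells were low in the members. The 9 Sertoli cell markers (among them Sox9, Wt1 and Clu) summed to 25.1 CPM in the Prm2 +/- and 92.6 CPM in the Prm2 -/- members, with 2 and 0 of the 9 at 0 UMIs. A Sertoli marker UMI was present in 64 and 186 of the 400 members, at no more than 0.149% and 0.411% of any member's UMIs. The 6 Leydig cell markers summed to 12.55 and 5.50 CPM, and markers of myoid cells, macrophages, endothelium and red blood cells to under 5 CPM each. The 5 stromal markers summed to 16.1 and 11.3 CPM. The late neighbours held more somatic RNA, with Sertoli markers at 133 and 176 CPM and Leydig markers at 95.6 and 137 CPM, and its part in the comparisons with them was not tested.

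The 6 score genes are listed here with their levels in early neighbours, members and late neighbours, which the rule fixed to be highest in the members. Fam24a stood at 293, 862 and 315 CPM in the Prm2 +/- library and at 417, 1109 and 384 CPM in the Prm2 -/- library. Tex36, named for its expression in testis, stood at 227, 757 and 313 CPM and at 324, 1285 and 573 CPM. Armh2, predicted to have an armadillo-like helical fold, stood at 203, 619 and 246 CPM and at 417, 1262 and 529 CPM. Smco4, a small membrane protein with a coiled coil, was lowest on the late side, with 96.1, 233 and 37.4 CPM in the Prm2 +/- and 150, 394.5 and 73.6 CPM in the Prm2 -/- library. The long non-coding RNA 1700041C23Rik did the same (105, 402 and 57.8 CPM, and 161, 634 and 125 CPM). Lurap1, a leucine-rich adaptor protein, had nearly the same levels in both libraries, at 67.1, 255 and 57.4 CPM and at 65.9, 244 and 65.6 CPM.

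With every member thinned to 2000 UMIs, which leaves out none, Fam24a was found in 85.8% of the Prm2 +/- and 88.3% of the Prm2 -/- members. Lurap1 was found in 41.3% and 40.0%, so the members do not each hold all 6 RNAs at that depth. Without thinning the shares were 98.5% and 99.8% for Fam24a and 86.5% and 82.5% for Lurap1. The background was taken from the 50 cells per library with the most Sertoli marker UMIs, whose median depth was 3168.5 and 4256 UMIs against the members' 9280 and 6532. Of these, 14% and 18% held a Fam24a UMI after thinning, and 6% and 0% a Lurap1 UMI, where 0 of 50 allows up to 7.11% (exact Clopper-Pearson bound).

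The score genes lie apart in the genome, on chromosomes 7 (Fam24a and Tex36), 9 (Smco4 and 1700041C23Rik), 4 (Lurap1) and 13 (Armh2). Promoters of 5 of the 6 were matched in the RefSeq windows of GRCm38.p6, each running from 250 bases before to 50 bases after a start site. When these were read, the letters TGTGACAT recurred in 3 of the 5, Fam24a, Tex36 and 1700041C23Rik, and they were then counted in all windows beside the related letters TGATGTCA. The stretches below are shown because they hold these letters, in capitals, close to the start. Each is the 130 bases before the RefSeq start site, 5′ to 3′ on the gene's own strand.
Fam24a: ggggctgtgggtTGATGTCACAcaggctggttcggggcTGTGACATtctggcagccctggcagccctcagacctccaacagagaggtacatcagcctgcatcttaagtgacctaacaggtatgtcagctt
Tex36: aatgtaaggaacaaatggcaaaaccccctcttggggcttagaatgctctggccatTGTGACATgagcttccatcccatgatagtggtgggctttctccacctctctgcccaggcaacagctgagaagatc
1700041C23Rik: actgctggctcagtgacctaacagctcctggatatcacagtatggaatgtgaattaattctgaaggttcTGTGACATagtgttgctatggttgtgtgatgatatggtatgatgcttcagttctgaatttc
Spam1: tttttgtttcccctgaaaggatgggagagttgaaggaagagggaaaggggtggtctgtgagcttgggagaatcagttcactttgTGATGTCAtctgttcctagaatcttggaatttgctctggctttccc
1700067P10Rik: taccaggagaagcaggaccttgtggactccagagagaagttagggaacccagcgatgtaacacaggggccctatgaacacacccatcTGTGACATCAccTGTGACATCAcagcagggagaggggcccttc
The stretches lie at chr7:131334492-131334621, plus strand (Fam24a), chr7:133602116-133602245, minus strand (Tex36), chr9:57175145-57175274, plus strand (1700041C23Rik), chr6:24791058-24791187, plus strand (Spam1) and chr17:48089512-48089641, plus strand (1700067P10Rik). GENCODE M21 starts Fam24a, Tex36 and 1700067P10Rik farther upstream than RefSeq, so in that annotation these stretches lie partly or wholly inside the gene, while those of 1700041C23Rik and Spam1 end just before it. Spam1 and 1700067P10Rik are not score genes but stood in the members above both neighbour sets. They are the only 2 with either word among 9 matched promoters of the 15 genes named below for standing above both sets. That is 22.2%, against 6.47% of all compared genes, and the other 7 held neither. In 1700067P10Rik the run TGTGACATCA, in which both 8-letter words overlap, occurs 2 times, starting 43 and 31 bases before the start site.

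These letters were more frequent in promoters of the genes that stood higher in the members than in the early neighbours. Searched on both strands, TGTGACAT was in 8.23% of such promoters (53 of 644 matched genes, score genes left out) and in 0.621% of promoters of the genes that stood lower (2 of 322). It was in 2.56% of all compared genes with a matched promoter and in 1.83% of all 32851 windows. A gene was counted if any of its windows held the word, so shares of genes and of windows are not on 1 scale. TGATGTCA was in 15.5% (100 of 644) and 0.932% (3 of 322) of the same sets, in 5.44% of compared genes and in 3.62% of all windows. Both words overlapped in 5.75% of promoters of the higher genes, in none of the lower genes and in 0.658% of all windows. In the higher genes 86.6% of the TGATGTCA and 82.8% of the TGTGACAT matches lay within 100 bases before the start site, against 56.8% for each word in all windows. The full palindrome TGACGTCA, which CREB family factors bind, showed no such split, with 4.19% and 2.80% in the higher and lower genes and 4.23% in all compared genes. Among genes that stood 2-fold above both neighbour sets the words were in 6.67% each (3 of 45 promoters). Against the late neighbours the order was the other way, with TGTGACAT in 3.42% of promoters of genes higher in the members (4 of 117) and 4.35% of those lower (13 of 299), and TGATGTCA in 6.84% and 9.36%. A match is a description of letters and not of a bound site, and both 8-letter words were chosen after the score genes' promoters had been read.

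The members were set beside each neighbour set over all genes. Of 4283 genes compared (at least 50 CPM in a member or neighbour set and at least 100 UMIs), 840 or 19.6% stood at least 2-fold higher in the members than in the early neighbours in both libraries, and 410 or 9.57% stood 2-fold lower. Against the late neighbours 171 or 3.99% stood 2-fold higher and 378 or 8.83% lower. The genes 2-fold above both neighbour sets in both libraries numbered 79 or 1.84%, among them the 6 score genes. Since all 3 sets were drawn from these same counts, the differences between them are a description. The early set is the far end of its clause and the late set the near edge of its own, so the 2 sets of counts are not on 1 scale, and with all cells of the late clause as late neighbours 227 genes stood above both.

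Among the other 73, the hyaluronidase Spam1, a sperm surface and acrosome protein that acts on the egg coat, had the largest minimum ratio under the naming rule. Spam1 stood at 58.1 CPM in the early neighbours, 196 CPM in the members and 37.0 CPM in the late neighbours of the Prm2 +/- library, and at 53.9, 195.5 and 53.3 CPM in the Prm2 -/- library. The integrin subunit gene Itgad had 33.5, 106.5 and 24.0 CPM, and 44.9, 148 and 35.5 CPM. The cytokine gene Il31 had 84.0, 252 and 52.2 CPM, and 110, 404 and 101 CPM. In all 3 the members stood at least 3-fold above either neighbour set of the same library. In the 400 next-ranked cells Spam1, Itgad and Il31 stood at 177.7, 86.1 and 206 CPM in the Prm2 +/- library. In those of the Prm2 -/- library the 3 genes stood at 204.5, 135 and 395 CPM. These levels lay nearer to the members than to either neighbour set. The 3 genes thus do not set the members apart from the cells ranked just below them.

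Several others of the 15 genes named by this rule were steeper on the early side in both libraries. Clec4a2, a C-type lectin receptor gene better known from white blood cells, was steepest on the early side, with 18.6 CPM in the early neighbours, 130 CPM in the members and 52.4 CPM in the late neighbours of the Prm2 +/- library, and 10.1, 110 and 47.2 CPM in the Prm2 -/- library. 1700067P10Rik had 131, 599 and 256 CPM, and 196.5, 950 and 425 CPM. The keratin gene Krt88 had 230.0, 749.5 and 286 CPM, and 297, 943 and 405 CPM. Ftmt, which encodes mitochondrial ferritin, an iron store, had 76.4, 244 and 110 CPM, and 90.9, 299 and 130 CPM. Lyzl4, a lysozyme-like acrosome protein gene that is itself in the round spermatid marker list, had 146, 507 and 206 CPM, and 123, 383 and 169 CPM. Lyzl4os, annotated antisense to it, followed it at 123, 351 and 161 CPM, and 104, 307 and 142 CPM, and whether counting used strand is not given in the sources used here, so the pair is uncertain. The remaining 6 (Bri3, 1700020L24Rik, Cyp4f39, 4933411G06Rik, 4932411K12Rik and Xpnpep1) had smallest ratios to a neighbour set in either library from 2.23-fold (Xpnpep1) to 3.15-fold (Bri3).

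**Figure D2:**
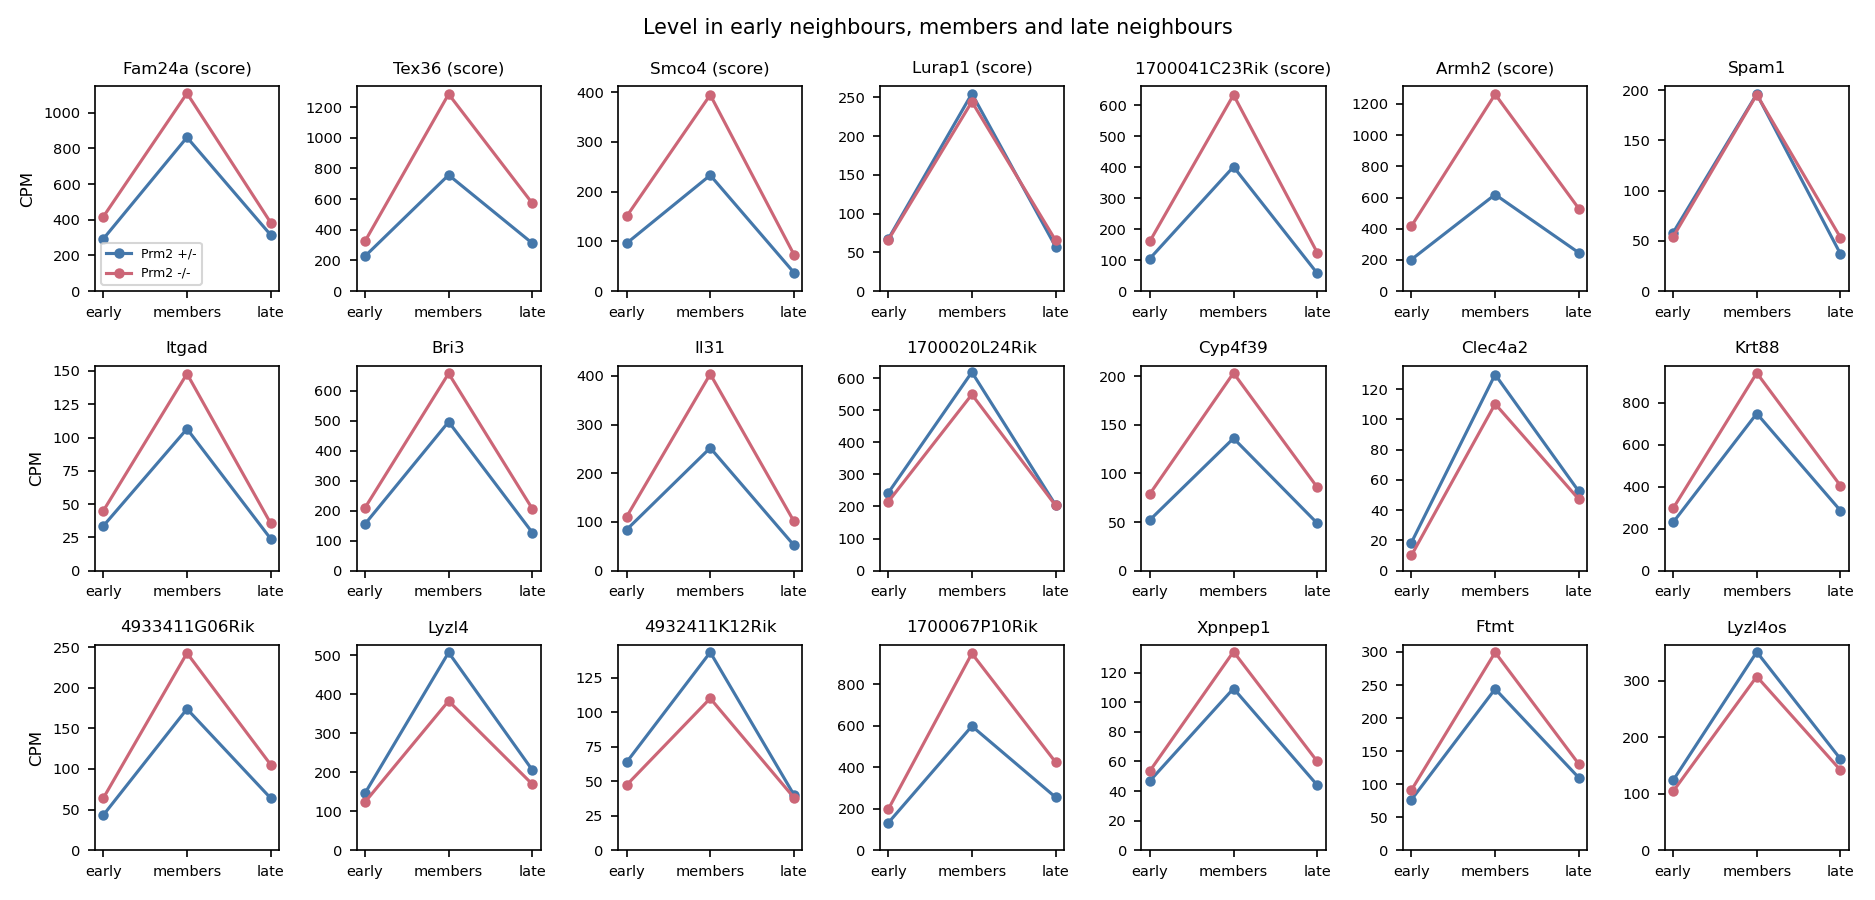
Level in CPM (linear axes from 0) of the 6 score genes and the 15 genes named by stage, in 400 early neighbours, 400 members and 400 late neighbours of the Prm2 +/- (blue) and Prm2 -/- library (red). The 2 libraries trace the same peak in the members, which the rule fixed for the score genes, while levels differ between them for Armh2 (619 and 1262 CPM) and hardly for Spam1 (196 and 195.5 CPM).

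Acrosome genes were among those higher in the members than in the early neighbours. Of 30 acrosome genes compared, 17 stood 2-fold higher and none 2-fold lower, against 19.6% and 9.57% of all genes. Spaca1, an acrosome membrane protein, stood at 275 CPM in the early neighbours and 727 CPM in the members of the Prm2 +/- library, and at 322 and 951 CPM in the Prm2 -/- library. Lyzl6, a lysozyme-like protein, stood at 121 and 450 CPM, and at 135.5 and 632 CPM. Crisp2 and Dkkl1, also acrosome genes, stood at 2266 and 1577 CPM in the early neighbours and 2011 and 1593 CPM in the members of the Prm2 +/- library, so their level was already high in the early neighbours.

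Of 9 sperm-egg fusion genes compared, 8 stood 2-fold above the early neighbours and none 2-fold below, against 19.6% and 9.57% of all genes. Izumo2 stood at 101 CPM in the early neighbours and 481 CPM in the members of the Prm2 +/- library, and at 108.5 and 511 CPM in the Prm2 -/- library. Tmem95 had 18.3, 81.7 and 17.3 CPM in early neighbours, members and late neighbours, and 15.0, 63.8 and 19.4 CPM, so it was higher in the members than on either side. Tmem81 stood at 3.95 and 32.5 CPM, and at 8.23 and 79.2 CPM, in early neighbours and members, a log2 ratio of 3.04 (interval 2.24 to 3.95) and 3.27 (2.64 to 3.96). Its level in the late neighbours, 28.6 and 61.8 CPM, was close to that in the members.

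Of the 7 testis-specific serine kinase (Tssk) genes, which act in late spermatids and sperm, 5 stood 2-fold above the early neighbours, against 19.6% of all genes. Tssk5 had 8.46, 67.1 and 12.7 CPM in early neighbours, members and late neighbours of the Prm2 +/- library and 7.86, 51.7 and 10.8 CPM in the Prm2 -/- library. The other genes of the group did not share that shape: Tssk6 stood at 151, 160.5 and 855.5 CPM, and at 102, 98.4 and 408.5 CPM. Of 10 CatSper channel genes, which admit calcium to the sperm tail, 4 stood 2-fold higher, against 19.6% of all genes, while the list's median log2 ratio over the early neighbours was -0.43 and -0.42. The 4 include Catsper3 (88.8 and 269 CPM, and 73.7 and 240 CPM) and Efcab9 (161 and 481 CPM, and 161 and 458.5 CPM). Catsperz stood at 1513 and 1229 CPM, and at 1400 and 1126 CPM.

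Of 39 flagellum genes compared, 3 stood 2-fold higher and 9 2-fold lower in the members than in the early neighbours, against 19.6% and 9.57% of all genes. The axonemal dynein heavy chain Dnah8 stood at 895 and 264 CPM in early neighbours and members of the Prm2 +/- library, and at 364.5 and 127 CPM in the Prm2 -/- library. The outer dense fibre gene Odf3 went the other way, with 56.1 and 413 CPM, and 89.4 and 617 CPM. Of 19 glycolysis genes 2 stood higher and 2 lower, against the same 19.6% and 9.57%, and Ldhc, the sperm lactate dehydrogenase, was at 6920 and 6363 CPM, and at 7087 and 6234 CPM.

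Chromatin genes split by gene. Hils1, a linker histone of spermatids, stood at 395 CPM in the early neighbours, 1503 CPM in the members and 1651 CPM in the late neighbours of the Prm2 +/- library, and at 304, 1165 and 1062 CPM in the Prm2 -/- library. H2al2a, a histone variant that works with the transition proteins, stood at 94.4, 123 and 777 CPM and at 56.5, 55.8 and 376 CPM, so its high level was in the late neighbours. The remodeler gene Chd5 stood at 81.2, 256 and 255 CPM, and at 67.7, 151 and 172 CPM. Among 13 spermatid transcription factor genes compared, 3 stood 2-fold above the early neighbours, close to the 19.6% of all genes. Lhx2 stood at 10.4 and 43.3 CPM, and at 15.3 and 95.4 CPM, in early neighbours and members. Creb3l4, a CREB family factor, stood at 161.5 and 501 CPM, and at 183 and 610 CPM. Crem, the activator of many spermatid genes, had 414 and 557 CPM, and 431 and 608 CPM, a difference under 2-fold.

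The members held little mitochondrially encoded RNA. The median cell had 0.171% of its UMIs from the mitochondrial genome in the Prm2 +/- and 0.267% in the Prm2 -/- members, against 1.04% and 1.10% in the early neighbours. All 11 mitochondrially encoded genes compared stood at least 2-fold below the early and the late neighbours in both libraries, against 9.57% and 8.83% of all genes. mt-Co3, a subunit of cytochrome oxidase, had 2729, 695 and 1931 CPM in early neighbours, members and late neighbours of the Prm2 +/- library and 2848, 853 and 2280 CPM in the Prm2 -/- library. The late sums rest on part of the cells: the median late neighbour held 0.175% and 0.533%, with an upper quartile of 0.942% and 1.30%.

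X-linked RNA stood higher from set to set, at a median of 0.564%, 1.07% and 1.41% of UMIs in early neighbours, members and late neighbours of the Prm2 +/- library, and 0.613%, 1.13% and 1.36% in the Prm2 -/- library. The sex chromosomes are silenced in meiosis, and a set of X-linked genes is read again in spermatids. Of 5 such genes compared, 4 stood 2-fold above the early neighbours, against 19.6% of all genes. Cypt1 stood at 89.6, 343 and 512 CPM, and at 95.8, 346 and 386 CPM, and Tsga8 at 424, 1006 and 753.5 CPM, and at 421, 1000.4 and 673 CPM. Slxl1, of a multicopy family whose copies can share reads, stood at 187, 339.5 and 201.5 CPM, and at 272, 498 and 322 CPM. Genes of the Y chromosome gave at least 1 UMI in all but 46 Prm2 +/- and 15 Prm2 -/- members, although a haploid cell carries an X or a Y. RNA passes between sister spermatids through bridges and can also be free in the suspension, and the part of either was not tested.

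**Figure D3:**
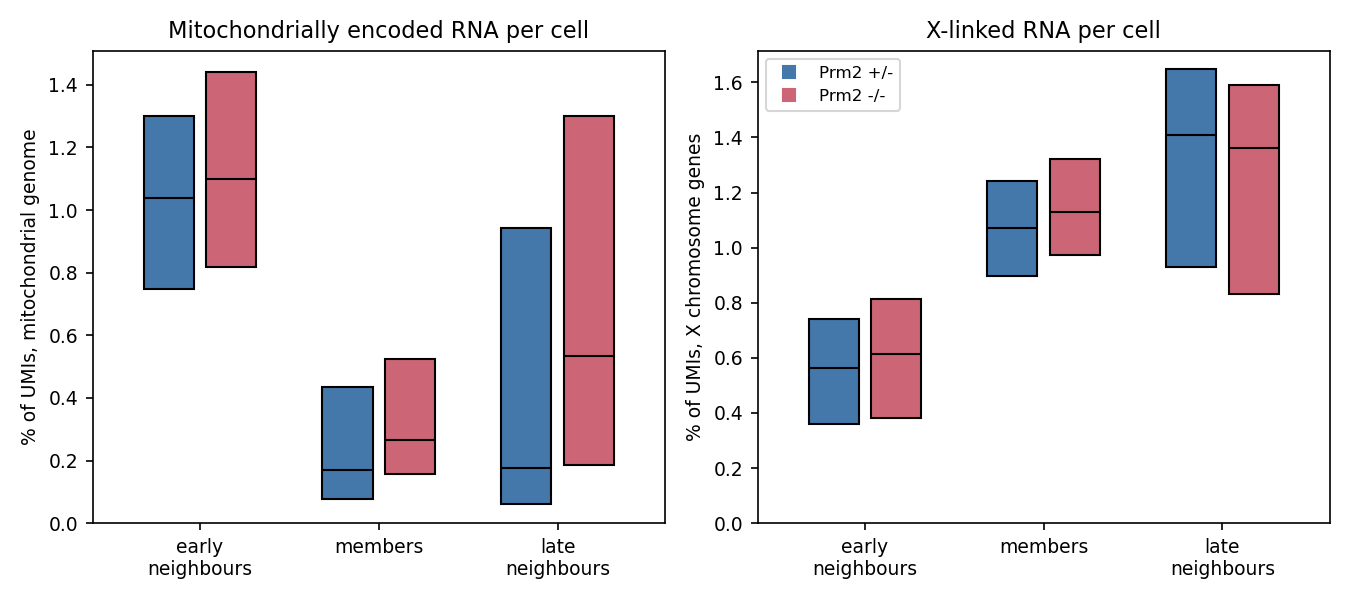
Percent of each cell's UMIs from the mitochondrial genome (left) and from X chromosome genes (right), in early neighbours, members and late neighbours of the Prm2 +/- (blue) and Prm2 -/- library (red). Boxes span the quartiles and bars mark the medians: the members lie below the early neighbours for mitochondrial RNA (0.171% against 1.04%, and 0.267% against 1.10%) and above them for X-linked RNA.

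The spread of single genes between members was largest for mitochondrially encoded RNA. With cells thinned to 2000 UMIs, the variance over the mean of UMIs had a median of 1.05 in the Prm2 +/- and 1.03 in the Prm2 -/- members over 1984 genes with a mean of at least 0.2 UMIs, and at means so low this ratio stays near 1 also where cells vary. The 8 genes farthest above that in both libraries were 6 mitochondrially encoded genes, Prm1 and the gene 4930500H12Rik, whose role is unknown. mt-Atp6, a subunit of ATP synthase, had a ratio of 9.99 and 6.19, and Prm1 7.86 and 2.89. Deeper members had a lower share of Prm1, Tnp1 and Tnp2. Between UMIs per cell and that share, whose denominator is the depth, the Spearman rho was -0.74 and -0.53 over 400 members each. The clause on these genes left out high shares only in deeper cells, so cells with such shares could enter only if shallow. In all, 57 Prm2 +/- members and 1 Prm2 -/- member entered in this way. The rule can thus by itself make the rho negative, and its part was not tested. The score itself followed depth less, with a rho of -0.19 and -0.24.

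Along the ranking by score the genes outside the rule differed in how far they moved within the members. Krt88 stood at 802.5 CPM in ranks 1 to 100 and 685 CPM in ranks 301 to 400 of the Prm2 +/- members, and at 962.5 and 904 CPM in the Prm2 -/- members. Cyp4f39 stood at 167 and 116.5 CPM in the Prm2 +/- and at 206 and 198 CPM in the Prm2 -/- members, and Clec4a2 at 138 and 100.2 CPM, and at 93.4 and 120.4 CPM. Mitochondrially encoded RNA had no steady course in the Prm2 +/- members, at 3075, 1898, 3318 and 3592 CPM in ranks 1 to 100, 101 to 200, 201 to 300 and 301 to 400. The 10 round spermatid markers summed to 4536 and 3979 CPM, and to 4266 and 4229 CPM. Farther down, in ranks 1601 to 3200, the 2 libraries parted, with the same markers at 1144 CPM in the Prm2 +/- and 3744 CPM in the Prm2 -/- library and mitochondrially encoded RNA at 21970 and 7869 CPM. At the same rank the Prm2 +/- cells thus held fewer round spermatid markers, in a library with 3971 against 9355 eligible cells.

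The targeted gene was checked first between the genotypes. Prm2 (chromosome 16, 10791380 to 10796134, minus strand, mm10) stood at 1642 CPM in the Prm2 +/- members (6412 UMIs) and at 7.15 CPM in the Prm2 -/- members (26 UMIs), a log2 ratio of -7.84 (interval -8.46 to -7.29). After thinning to 2000 UMIs, 93.75% of the Prm2 +/- members held a Prm2 UMI (375 of 400, exact Clopper-Pearson 90.9 to 95.9%) and 2.00% of the Prm2 -/- members (8 of 400, 0.867 to 3.90%). In the Sertoli marker cells, which should lack the gene, the shares were 94.0% (47 of 50) and 0 of 50, which allows up to 7.11%, at the median depths given above. The Prm2 +/- share is therefore at background and is not read as expression in the members. The kit reads the 3′ end of each RNA, and if that end lies outside the altered part of Prm2, the level checks nothing.

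Prm1, Tnp1 and Tnp2 were also found in most of the Sertoli marker cells, in both libraries, and the rule also used them. Prm1 stood at 3624 CPM in the Prm2 +/- and 1479 CPM in the Prm2 -/- members, a log2 ratio of -1.29 (-1.34 to -1.25), Tnp2 at 1795 and 885 CPM (-1.02) and Tnp1 at 1748 and 1021 CPM (-0.78). In the same order the ratios were -0.98, -0.73 and -0.88 in the early and -1.09, -0.83 and -0.82 in the late neighbours. The late sets were drawn by these genes and reach different shares of them, so their ratios are a product of the draw. Tnp2 was under 2-fold in several other settings (-0.90 with the clause on Prm1, Tnp1 and Tnp2 at any depth), and Prm1 stood at -0.96 with the lower common score threshold. Per cell, the median number of Prm1 UMIs was 32 in the Prm2 +/- members, 31 in the early neighbours and 33.5 in the Sertoli marker cells, and 11, 10 and 12 in the Prm2 -/- library. The members thus held about as much Prm1 per cell as a somatic cell set of the same library, and the part of free RNA was not tested. In the late neighbours the Prm1 medians were 220.5 and 88.5. The Tnp1 medians in members, early neighbours and Sertoli marker cells were 16, 12 and 14 UMIs in the Prm2 +/- library. In the Prm2 -/- library they were 7, 4 and 5. For Tnp2 they were 16, 14 and 17, and 7, 5 and 6. These medians are not at equal depth. After thinning to 2000 UMIs, Tnp1 was found in 96.75%, 94.75% and 96.0% of the same sets of the Prm2 +/- library. In the Prm2 -/- library it was found in 84.75% of members, 73.75% of early neighbours and 96.0% of Sertoli marker cells. At that depth Tnp1 thus did not set the members above the Sertoli marker cells. Prm3, the protamine-like gene beside Prm1 and Prm2, was found more often in the members than in both sets. Its median per cell, at unequal depth, was 9 UMIs in the Prm2 +/- members against 2 in both the early neighbours and the Sertoli marker cells. In the Prm2 -/- library it was 7 against 2 and 1. After thinning to 2000 UMIs, Prm3 was found in 85.25% of the Prm2 +/- members, 49.25% of early neighbours and 72.0% of Sertoli marker cells (57.5 to 83.8%). In the Prm2 -/- library the shares were 81.25%, 43.75% and 58.0% (43.2 to 71.8%). Prm3 stood at 1134 and 1056 CPM in the members of the 2 libraries, a log2 ratio of -0.10 (-0.17 to -0.04).

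Most genes stood close together in the members of the 2 genotypes. Of 3771 genes compared (at least 50 CPM in either member set and at least 100 UMIs over both), 42 or 1.11% stood at least 2-fold higher in the Prm2 -/- members and 39 or 1.03% at least 2-fold lower. The median log2 ratio of all of them was -0.01. Of the 6 score genes, which were selected within each library, 5 stood higher in the Prm2 -/- members, from Armh2 at a log2 ratio of 1.03 through Tex36 and Smco4 at 0.76 and 1700041C23Rik at 0.66 to Fam24a at 0.36, and Lurap1 stood at -0.06. In the early neighbours, drawn without the score, the ratios in that order were 1.04, 0.51, 0.64, 0.61, 0.51 and -0.03. With the lower of both score thresholds in both libraries Armh2 stood at 0.65, under 2-fold.

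Among genes higher in the Prm2 -/- members the long non-coding RNA 4933431M02Rik stood out, with 1 UMI in the 400 Prm2 +/- members and 250 UMIs (68.7 CPM) in the 400 Prm2 -/- members, a log2 ratio of 8.07 (interval 5.58 to 13.38). The neighbours had like levels, at 0.282 and 68.1 CPM in the early and 0.195 and 50.5 CPM in the late sets. The RNA-binding protein gene Elavl1, which stabilizes mRNAs, stood at 82.7 and 235 CPM (1.51, interval 1.32 to 1.70). The splicing protein gene Snrpf stood at 127 and 325 CPM (1.36, interval 1.20 to 1.51). The neighbours also stood higher in the Prm2 -/- library, with log2 ratios of 1.33 in the early and 1.38 in the late sets for Elavl1 and 0.85 and 1.78 for Snrpf. Spint2, a membrane inhibitor of serine proteases, stood at 28.4 and 91.8 CPM (1.69), the phosphatase subunit Ppp4c at 20.2 and 58.6 CPM (1.53), and the nuclear pore gene Nup37 at 21.3 and 59.7 CPM (1.49). Their early and late ratios were 1.29 and 1.15, 1.40 and 1.95, and 1.09 and 1.61. The claudin-like gene Cldn34b1 on the X chromosome stood at 1.38, and the non-coding RNAs 4930471D02Rik and 1700105P06Rik at 1.63 and 1.34, the latter annotated antisense. Spint2 stood at 0.96 with cells scored at 2000 UMIs each. The 5 Prm2 +/- members at or above the lowest Prm2 -/- score held no UMI of Spint2, Ppp4c, Nup37, 4933431M02Rik or Fmn1, so they give no direction.

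Fmn1, a formin that builds actin filaments, differed by set. It stood at 22.3 and 74.2 CPM in the Prm2 +/- and Prm2 -/- members (log2 ratio 1.74, interval 1.38 to 2.10), at 45.9 and 58.0 CPM in the early neighbours (0.34) and at 34.3 and 136 CPM in the late neighbours (1.99). In the Prm2 +/- library it was lower in the members than in the early neighbours (-1.04, interval -1.44 to -0.66) and in the Prm2 -/- library higher (0.36, interval 0.07 to 0.65). The difference between these 2 stage ratios was not tested.

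Among genes lower in the Prm2 -/- members, Ntan1 and Bloc1s6 also differed by set, in the other direction. Ntan1 encodes an enzyme that deamidates asparagine at protein ends, and stood at 80.7 CPM in the Prm2 +/- members (315 UMIs) and 2.75 CPM in the Prm2 -/- members (10 UMIs), a log2 ratio of -4.87 (-5.95 to -3.98). In the early neighbours it stood at 20.9 and 8.61 CPM (-1.28) and in the late neighbours at 52.6 and 6.13 CPM (-3.10). It was thus higher in the members than in the early neighbours of the Prm2 +/- library (1.95, interval 1.58 to 2.34) and lower in those of the Prm2 -/- library (-1.65, interval -2.88 to -0.52). Bloc1s6, a subunit of a complex that forms lysosome-related organelles, had the same order, with 51.5 and 3.30 CPM in the members (-3.96), 19.5 and 7.86 CPM in the early neighbours (-1.31) and 56.7 and 5.50 CPM in the late neighbours (-3.37). In the Prm2 -/- library this order rests on few counts, 12 members and 21 early neighbours with 1 Bloc1s6 UMI each. The difference between the stage ratios of the 2 libraries was not tested for either gene.

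Ntan1 (13818845 to 13835451, plus strand) lies on chromosome 16, as Prm2 does. Of 25 genes of that region, listed with earlier results known, 7 were compared and 5 stood 2-fold lower, against 1.03% of all genes. The 5 were Ntan1, Pdxdc1 (-1.65), the antisense gene Gm15738 (-3.35, named after its value was seen), Prm1 and Tnp2. The rule used Prm1 and Tnp2, and the list was drawn up knowing such values, so this count is a description. Pdxdc1 (13833148 to 13903131, minus strand) overlaps Ntan1, so reads in the overlap could be told apart only by strand. Pdxdc1 stood at 87.8 and 28.04 CPM in the members, at 86.5 and 30.7 CPM in the early and at 81.4 and 33.0 CPM in the late neighbours, with log2 ratios of -1.65, -1.50 and -1.30.

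The other named genes that stood lower did so in the members and in both neighbour sets. The class II histocompatibility gene H2-Ab1 stood at 61.2 and 4.67 CPM in the members (-3.71), with -3.59 in the early and -2.81 in the late neighbours. Rabgef1, an activator of the endosomal GTPase Rab5, stood at -2.75, -4.07 and -2.89, and Cdk8, a kinase of Mediator, at -2.54, -1.53 and -1.73. Fxyd2, a regulator of the sodium pump, stood at -2.21, Hist2h2aa1, a histone gene with a near-identical copy and thus uncertain, at -2.09, and the non-coding AY036118 at -1.67. Gm10260, a predicted gene outside the naming rule, had 277 and 1 UMIs (-8.01, interval -13.32 to -5.52) and was named after its values were seen.

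**Figure D4:**
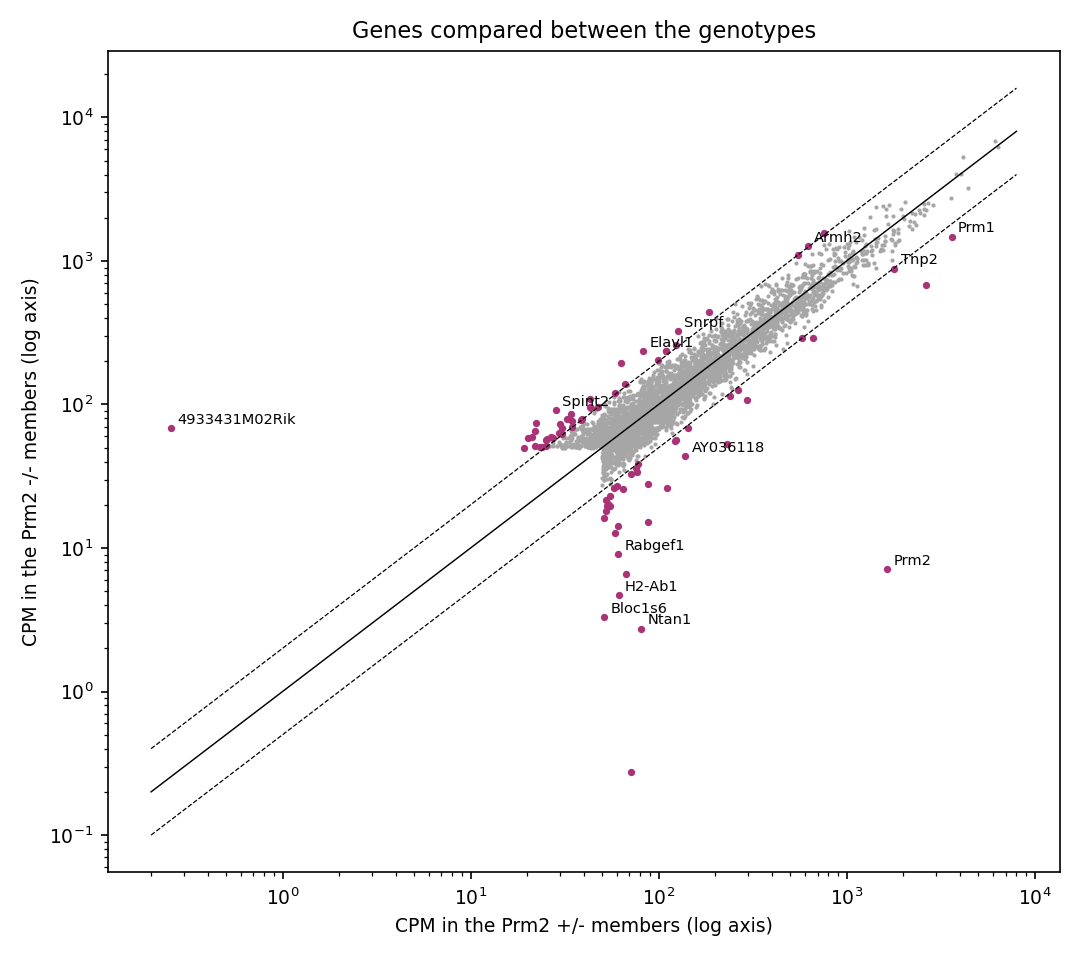
Level in CPM of the 3771 compared genes in the Prm2 +/- (x) and Prm2 -/- members (y), both on log axes. The solid line marks equal levels, the dashed lines 2-fold, and purple points the 42 higher and 39 lower genes, of which 13 are named. The lowest unnamed point is Gm10260, and 4933431M02Rik and Prm2 lie far out on opposite sides.

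The lists of spermatid genes showed shifts that were small beside these. Of 34 flagellum genes compared, 26 stood below 0, with a median log2 ratio of -0.26, where 51.5% of all genes stood below 0. Dnah8 (264 and 127 CPM, -1.06) and Fsip2, a fibrous sheath protein gene (581 and 290.3 CPM), were 2-fold lower, Fsip2 just at that line, and Odf3 stood at 0.58. All 7 Tssk genes stood below 0, with a median of -0.26 and Tssk3 lowest (198 and 113 CPM, -0.81). Of 66 cytosolic ribosomal protein genes, 56 stood below 0, with a median of -0.31, Rps15 at -0.90 and Rpl31 at -0.88. Manchette and head shaping genes had a median of -0.09 over 25 genes (Ift27 -0.91, Katnal1 0.63), and glycolysis genes -0.10 over 16 (Bsg 0.76, Eno4 -0.61).

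All 9 mitochondrially encoded genes compared stood above 0 in the Prm2 -/- members, with a median log2 ratio of 0.49 and mt-Cytb called higher (123 and 261 CPM, 1.09). The direction turned with depth: in members under 5000 UMIs (83 and 99 cells) this RNA summed to 12510 CPM in the Prm2 +/- and 6059 CPM in the Prm2 -/- library, and in the others to 2312 and 3465 CPM. The list's median was 0.13 with members weighted equally and 0.92 with the lower common score threshold. Median depth also differed (9280 and 6532 UMIs), and UMIs per cell and the mitochondrial share had a Spearman rho of -0.42 and -0.32 over 400 members each. With a minimum of 5000 UMIs per member the list's median was 0.77. RNA storage and chromatoid body genes had a median of 0.15 over 17, with Elavl1 and Ybx2, a binder of stored mRNA (549.5 and 1104 CPM, 1.01, just past 2-fold), called higher. Of 14 spermatid transcription factor genes, 10 stood above 0 with a median of 0.17, Lhx2 called higher (43.3 and 95.4 CPM, 1.14) and Tbpl1, a TBP relative needed in spermatids, at 0.72. Histone variant genes had a median of 0.19 over 8, with the replacement histone genes H3f3a and H3f3b at 0.64 and 0.55 and H2al2a called lower (123 and 55.8 CPM, -1.14).

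Acrosome genes had a median of -0.02 over 29, none called, and ranged from Lyzl4 at -0.41 to Spaca5 at 0.78. Sperm-egg fusion genes had a median of -0.16 over 10, with Tmem81 called higher (32.5 and 79.2 CPM, 1.28). CatSper genes stood at -0.07 over 7, X-linked spermatid genes at -0.01 over 5 and histone eviction genes at -0.07 over 9 (Chd5 -0.76, Tdp1 0.82). Early genes that dissociation induces stood at 0.66 over 3 (Klf2 0.70) and apoptosis and p53 genes at 0.35 over 4 (Diablo 0.68, Mdm2 0.43), too few to describe a group.

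**Figure D5:**
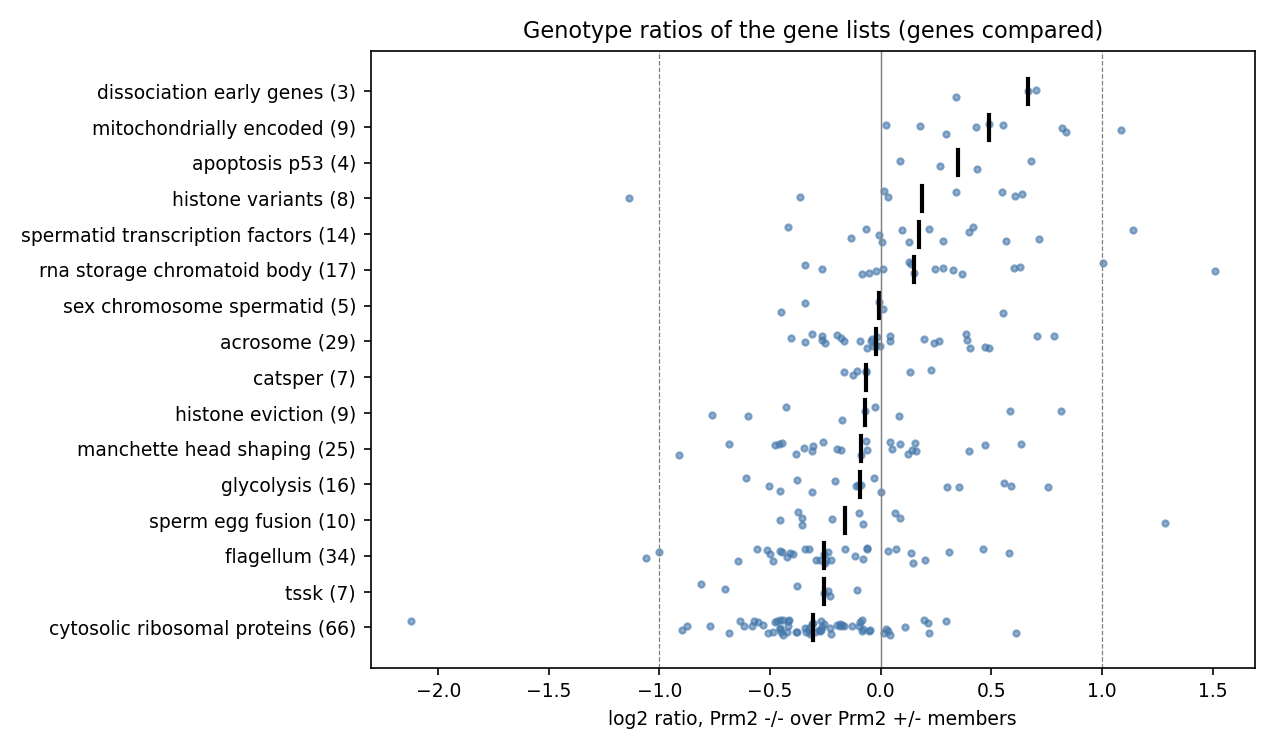
Log2 ratio of Prm2 -/- over Prm2 +/- members for each compared gene (points) of 16 gene lists, with the list's median (bars) and its number of genes in brackets. Dashed lines mark 2-fold, and medians run from -0.31 for ribosomal proteins to 0.66 for the 3 dissociation genes.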

How the data were processed

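The authors deposited UMI counts per gene and cell barcode for 2 libraries, made with a Chromium 3′ v3.1 kit per the labels' protocols. Cell Ranger 7.1.0 made the matrices per the file headers, and mm10 and Seurat 4.1.0 are named in the submitters' processing notes without a role. Whether intronic reads or strand entered the counts is not given in the sources used here. The barcodes exceeded the 15000 cells loaded per library, per the labels' protocols.

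Barcodes were ranked by the rule above, and UMIs of each set of 400 were summed and scaled to CPM (numpy 2.4.6, scipy 1.17.1, pandas 2.3.3). Depth was 71364845 UMIs in the Prm2 +/- and 123588822 UMIs in the Prm2 -/- library, and 3905382 and 3637634 UMIs in the members. Genes with at least 50 CPM in a compared set and at least 100 UMIs were compared, and called at 2-fold. Intervals are exact Poisson, conditional binomial or Clopper-Pearson at 95%. The share of cells with a UMI of a single gene, unless given as without thinning, and the spread between members were taken after thinning to 2000 UMIs. Scores, marker list counts and chromosome shares per cell were not thinned. Doublets were marked with Scrublet (scanpy 1.11.5), which marked 2.59% and 15.7% of barcodes, and were kept. The ratio code was tested on simulated counts.

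The text names the score and exclusion genes, Prm2, Prm3, the 15 largest minimum stage ratios at 100 CPM or more, the 10 highest and 10 lowest genotype ratios, the 8 most variable genes, and of each list up to 4 members by ratio and 3 by level; predicted names were left out. A gene that the rule names is not reported here. Other list members given were chosen after their values were seen. The members, the 33 gene lists and the rules were chosen with earlier results of these data known. Positions are GENCODE M21 (32235 of 32285 gene IDs found), and promoter sequences RefSeq on GRCm38.p6. Alternatives varied the members' number, depth, score threshold, clauses, doublets, scaling (TMM of edgeR 4.0.16) and filters.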

Additional observations from a re-analysis of the deposited data

How the results depend on the processing

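No paired analysis was possible because each genotype has 1 library, so no library could be left out either. The counts of 42 higher and 39 lower genes moved with the filter on low values: 118 and 88 at a minimum of 10 CPM, 10 and 10 at 200 CPM, and 1789 and 1250 with none. With the higher of both score thresholds in both libraries only 5 Prm2 +/- members were left, and the counts were 440 and 923, with Prm2 at -8.80. There 4933431M02Rik (-1.01), Fmn1 (-0.90), Nup37 (-1.21), Ppp4c (-1.24) and Spint2 (-0.59) took the reversed sign because the 5 cells held no UMI of them and the floor of 3 UMIs in so few cells exceeds the Prm2 -/- level, so these are bounds and show no direction. Under the other settings the counts ran from 29 to 58 higher and from 31 to 53 lower. The lower threshold in both libraries (400 and 2616 cells) gave 35 and 31, of which 22 of the 42 higher genes remained, and the same share of eligible cells gave 29 and 31. Both were added after seeing the data, as were a minimum of 5000 UMIs and the Prm1, Tnp1 and Tnp2 clause at any depth. Scoring cells at 2000 UMIs each kept 224 and 178 of the 400 members, with 35 and 31 genes and Prm2 at -8.48. The share of members with a Prm2 UMI was 76.75% and 0.5% at 1000 UMIs, and 100% and 6.25% without thinning. Genes above both neighbour sets numbered 151 with all cells of the early clause as early neighbours and 227 with all cells of the late clause as late neighbours.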
